A study of Mus musculus with 20 samples.

Results

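Complexes II to V of the mitochondrial respiratory chain were examined in the epididymal fat of obese mice through 39 genes: 4 of complex II, 9 of complex III, the gene of cytochrome c, 10 of complex IV and 15 of complex V. The genes were listed by their function, and each was looked up by its symbol in the platform annotation. Where a symbol had several probe sets, the brightest on average was to be used. Of the 39 genes, 38 were measured, each by 1 probe set, among 19505 genes measured in all. Atp5f1, which encodes a stalk protein of complex V, had no probe set under that symbol and was not analysed here.

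Succinate dehydrogenase (complex II) passes electrons from succinate to ubiquinone, the cytochrome bc1 complex (complex III) passes them on to cytochrome c, and cytochrome c oxidase (complex IV) hands them to oxygen. Complexes III and IV pump protons as they do so, and ATP synthase (complex V) uses the proton gradient to make ATP. All 39 genes lie in the nucleus, while some further subunits of complexes III, IV and V are encoded in the mitochondrial genome. In white fat the chain supports adipocyte metabolism, and adipose tissue gathers macrophages in obesity.

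Total RNA of whole epididymal fat pads from 20 male C57BL/6 mice was hybridised to expression arrays, 1 array per mouse. All 20 mice carried a Tnf gene floxed on both alleles (TNF-αFlox/FLox). The 10 mice called cre also carried LyzMcre+/-, in which the lysozyme M promoter drives Cre in the myeloid lineage (macrophages, neutrophils and their relatives), so that Tnf is deleted there. The 10 littermates called wt were LyzMcre-/-. The diet was chow up to week 10 of life, followed by 18 weeks of high-fat food (40% of calories as fat), and all mice were 28 weeks old. The titles place 5 wt and 5 cre mice in each of 2 batches and say no more about what a batch was. Values are log2 signals, on which a difference of 1 is a doubling. They show changes of a gene between mice but not which of several genes is more abundant, so levels are not compared between genes.

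The arrays had medians between 6.49 and 6.58, and any pair of arrays correlated at 0.934 to 0.989. Tnf, the gene targeted in cre mice, averaged 6.66 ± 0.69 in wt against 4.67 ± 0.43 in cre mice (log2 signal, SD, n = 10 each), and it was the 1 probe set of 22206 that passed limma's test with Benjamini-Hochberg adjustment (adjusted p = 0.000822). Adipocyte markers fitted the tissue: the mean log2 signal of 10 measured markers of 12 listed ranged from 14.8 to 17.3 in wt and from 16.4 to 17.4 in cre mice. The mean of 11 measured macrophage markers of 12 listed ranged from 12.19 to 14.04 in wt and from 10.94 to 13.19 in cre mice. Between genotypes, 10 of the 10 adipocyte markers had higher estimates in cre mice (median 0.37) and 10 of the 11 macrophage markers lower ones (median −0.32). None passed adjustment in limma. At an unadjusted p under 0.05 were 0 adipocyte markers and 3 macrophage markers, all lower. The shares of all probe sets at such a p were 3.24% higher and 3.05% lower in cre mice. The 11 macrophage markers include Lyz2, the lysozyme M gene, whose promoter drives Cre in cre mice. Its median was 17.02 in wt and 15.64 in cre mice, and the list without Lyz2 was not tested. Fits with Adipoq or Adgre1, a marker of each cell type, as a further term are given for Cycs, Cox6a1, Atp5d and Atp5g1. Marker lists of other tissues exceeded all remaining mice of the genotype by over 1 log2 unit in wt 4 (liver and pancreas), wt 6 (seminal vesicle and prostate), wt 7 (skeletal muscle) and cre 3 (seminal vesicle). The same held for the 2 measured erythroid genes in cre 9 (mean 14.65, next cre mouse 10.37), the B cell list in wt 9 and the brown adipocyte list in cre 2. The deletion is directed to myeloid cells while the arrays read the whole fat pad, so for every gene below fewer cells of a type and less RNA per cell cannot be told apart.

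The promoters of these genes were searched for short motifs, each of which was found in a minority of the windows. RefSeq windows of 300 bases on build GRCm38.p6, most of them before and the last part after a transcript start, were matched by symbol for 30 of the 38 genes, which had 33 windows. Sdhc, Uqcrc2, Cyc1, Uqcrb, Uqcrq, Cox4i1, Cox6c and Atp5a1 were not matched. Motifs of 4 regulators of mitochondrial genes were searched as exact letters on both strands. The NRF1 core GCGCATGCG was found in 7 of the 33 windows (21.2%) and in 1.75% of the 32851 windows of all genes. The ETS motif CCGGAAG, which GABP binds, was found in 12 windows (36.4%) against 8.86% of all windows. The ERR motif AAGGTCA was found in 5 windows (15.2%) against 4.72%, and the YY1 motif AANATGGCG in 3 windows (9.09%) against 2.38%. The median GC content was 57.0% in the 33 windows and 52.7% in all windows, and the shares were not compared with windows of like GC content. A match is a match of letters and no measurement of binding.

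Of the 6 windows below, Cox6b1 and Atp5l belong to genes that varied with the mean of the others across mice, and Cycs, Cox6a1, Atp5d and Atp5g1 to the genes with the smallest p between genotypes. Capitals mark the motifs, read on the strand of the gene. Cox6b1 holds 1 ETS motif, Atp5l 1 NRF1, 2 ETS and 1 ERR motif, and Cycs 1 NRF1 motif. Cox6a1 holds 1 ETS motif and 1 stretch that matches the NRF1 core on both strands, counted as 2 overlapping motifs. Atp5d has a pair of windows, of which 1 is shown, and neither these nor that of Atp5g1 hold any of the 4 motifs, which says only that these letters are absent from them.
Cox6b1 promoter, chr7:30626065-30626364, minus strand: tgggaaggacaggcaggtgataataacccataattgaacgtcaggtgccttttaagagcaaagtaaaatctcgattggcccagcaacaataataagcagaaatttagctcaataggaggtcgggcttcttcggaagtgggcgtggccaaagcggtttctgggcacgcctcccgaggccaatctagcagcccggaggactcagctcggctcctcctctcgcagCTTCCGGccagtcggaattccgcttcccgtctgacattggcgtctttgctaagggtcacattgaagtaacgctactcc
Atp5l promoter, chr9:44920693-44920992, minus strand: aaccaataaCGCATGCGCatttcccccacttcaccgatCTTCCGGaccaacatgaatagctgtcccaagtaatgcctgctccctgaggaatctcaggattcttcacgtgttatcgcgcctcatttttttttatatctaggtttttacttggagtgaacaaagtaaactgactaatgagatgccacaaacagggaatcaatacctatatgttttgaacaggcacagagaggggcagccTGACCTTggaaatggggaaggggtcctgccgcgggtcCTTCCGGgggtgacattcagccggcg
Cycs promoter, chr6:50566520-50566819, minus strand: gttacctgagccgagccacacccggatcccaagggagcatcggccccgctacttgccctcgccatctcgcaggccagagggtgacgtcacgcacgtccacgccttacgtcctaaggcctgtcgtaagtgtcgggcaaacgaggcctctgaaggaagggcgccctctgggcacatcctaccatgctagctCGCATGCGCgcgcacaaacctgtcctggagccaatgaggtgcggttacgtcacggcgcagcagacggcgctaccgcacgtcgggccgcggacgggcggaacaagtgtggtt
Cox6a1 promoter, chr5:115348909-115349208, minus strand: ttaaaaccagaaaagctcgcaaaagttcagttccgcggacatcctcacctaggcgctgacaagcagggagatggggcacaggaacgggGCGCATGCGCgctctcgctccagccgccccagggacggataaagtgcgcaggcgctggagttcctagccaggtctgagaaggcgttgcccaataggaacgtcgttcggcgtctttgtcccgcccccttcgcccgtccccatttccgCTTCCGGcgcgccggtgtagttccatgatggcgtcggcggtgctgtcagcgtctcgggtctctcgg
Atp5d promoter, chr10:80142025-80142324, plus strand: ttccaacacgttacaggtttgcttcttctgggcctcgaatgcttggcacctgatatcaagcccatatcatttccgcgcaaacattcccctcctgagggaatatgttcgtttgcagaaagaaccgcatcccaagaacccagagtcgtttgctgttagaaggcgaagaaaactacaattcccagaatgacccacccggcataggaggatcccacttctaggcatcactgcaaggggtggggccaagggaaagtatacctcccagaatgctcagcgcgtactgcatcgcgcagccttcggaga
Atp5g1 promoter, chr11:96075582-96075881, minus strand: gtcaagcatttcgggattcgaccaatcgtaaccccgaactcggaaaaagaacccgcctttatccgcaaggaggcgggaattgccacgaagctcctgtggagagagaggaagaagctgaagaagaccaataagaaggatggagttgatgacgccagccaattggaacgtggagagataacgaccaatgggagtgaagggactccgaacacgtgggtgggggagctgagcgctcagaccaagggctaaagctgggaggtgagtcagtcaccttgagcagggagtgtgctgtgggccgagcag

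Deletion of Tnf in myeloid cells came with no called change in any gene of complexes II to V. In limma's fit with genotype and batch, adjusted over all 22206 probe sets, 0 of the 38 genes passed, beside 0.0045% of all probe sets. The estimates lay on both sides of 0, with 22 genes higher and 16 lower in cre mice, with a median log2 difference of 0.04 (cre minus wt) beside a median of 0.003 over all probe sets. At an unadjusted p under 0.05, 1 gene was higher (Cycs), beside 3.24% of all probe sets, and 3 were lower (Atp5d, Atp5g1 and Cox6a1), beside 3.05%. The study's own selection, an unadjusted p under 0.05 and at least a 1.5-fold difference, held 0 of the 38 genes among the higher ones, beside 0.383% of all probe sets, and 2 among the lower ones, Atp5d and Atp5g1, beside 0.662%. The genotypes overlapped for each of the 38 genes.

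None of the 4 subunits of complex II passed the test between genotypes. Sdha, the flavoprotein that oxidises succinate, had log2 signals from 10.03 to 11.19 in wt (median 10.75) and from 10.21 to 11.36 in cre mice (median 10.62). Its difference was 0.11 (SE 0.18, 95% interval −0.27 to 0.48). Sdhb, the iron-sulfur subunit, varied least of the 38 genes, with an SD of 0.227 over all mice. It ranged from 12.78 to 13.56 in wt and from 12.97 to 13.56 in cre mice, with the same median of 13.16 and a difference of 0.06 (SE 0.12). Sdhc, a membrane anchor, ranged from 10.47 to 11.36 in wt (median 11.08) and from 10.66 to 11.71 in cre mice (median 11.23), a difference of 0.23 (SE 0.15). Sdhd, the other anchor, had an estimate of 0.07 (SE 0.13). All 4 estimates lay above 0 and none reached an unadjusted p under 0.05.

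Of the 9 complex III genes, 7 had higher and 2 had lower estimates in cre mice, from −0.14 for the core protein Uqcrc1 to 0.29 (SE 0.19) for the core protein Uqcrc2. Cyc1, the cytochrome c1 subunit, had log2 signals from 7.61 to 9.11 in wt (median 8.55) and from 7.72 to 9.40 in cre mice (median 8.66), a difference of 0.18 (SE 0.20). The Rieske protein Uqcrfs1 differed by 0.01 (SE 0.16). The small accessory subunits Uqcrb, Uqcrq, Uqcr10 and Uqcr11 had estimates between 0.05 and 0.11. Uqcrb ranged from 16.34 to 17.34 in wt and from 15.84 to 17.45 in cre mice, with cre 4 lowest. The hinge protein gene Uqcrh, also an accessory subunit, spread widely in cre mice, from 11.78 to 14.16, against 12.67 to 13.68 in wt mice. Cre mice thus lay both above and below the wt range, and the mean difference was −0.12 (SE 0.23).

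Cytochrome c, the carrier between complexes III and IV, gave the highest estimate. Cycs had log2 signals from 14.62 to 15.68 in wt (median 15.36) and from 14.76 to 16.21 in cre mice (median 15.72). Of the 10 cre mice, 9 lay above the wt mean and 6 above every wt mouse, while cre 4 lay near the lowest wt mouse. The difference was 0.40 (SE 0.17, 95% interval 0.04 to 0.76), a 1.32-fold higher level that did not pass adjustment in limma (adjusted p = 0.781). By batch it was 0.66 and 0.14. With Adipoq as a further term it was 0.24 (SE 0.16), with Adgre1 0.33 (SE 0.15), and without wt 5 and wt 6 it was 0.28 (SE 0.17).

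Complex IV had 4 estimates above and 6 below 0. Cox6a1, the liver-type isoform of subunit 6a, had log2 signals from 15.36 to 16.48 in wt (median 15.97) and from 14.67 to 16.02 in cre mice (median 15.62). Of the 10 cre mice, 9 lay below the wt mean and 3 below every wt mouse. The difference was −0.43 (SE 0.17, 95% interval −0.79 to −0.08), a 1.35-fold lower level, and did not pass adjustment (limma adjusted p = 0.770). By batch it was −0.58 and −0.29. With Adipoq as a further term it was −0.48 (SE 0.18), with Adgre1 −0.42 (SE 0.17), and without wt 5 and wt 6 −0.48 (SE 0.18). Cox8a, the gene whose signals followed those of Cox6a1 most closely (r = 0.929 over 20 mice), had an estimate of −0.35 (SE 0.18). The other 8 subunits had estimates between −0.12 (Cox7b) and 0.20 (Cox4i1, the subunit 4 isoform of most tissues), with Cox5a, Cox5b, Cox6b1, Cox6c, Cox7a2 and Cox7c between −0.04 and 0.07. Cox7c ranged from 16.66 to 17.39 in wt and from 16.11 to 17.61 in cre mice, and Cox5a from 11.14 to 11.94 in wt and from 11.13 to 12.05 in cre mice. Cox7b ranged from 13.12 to 14.24 in wt and from 12.15 to 13.98 in cre mice. Cre mice lay on both sides of the wt range for Cox7c, with 2 below and 2 above every wt mouse, and for Cox5a, with 1 below and 2 above. For Cox7b 2 cre mice lay below every wt mouse and 0 above.

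Complex V held the gene with the smallest p of the 38. Atp5d, the delta subunit in the central stalk of ATP synthase, had log2 signals from 13.81 to 15.05 in wt (median 14.54) and from 12.90 to 14.34 in cre mice (median 13.89). Each of the 10 cre mice was lower than the wt average, 4 were lower than any wt mouse, and cre 9, the mouse high in erythroid genes, was lowest. The difference was −0.76 (SE 0.18, 95% interval −1.12 to −0.39), a 1.69-fold lower level with an unadjusted p of 0.000279, which did not pass adjustment over all probe sets in limma (adjusted p = 0.551). By batch it was −0.82 and −0.69. Leaving out wt 5 and wt 6, the mice lowest in Adipoq, gave −0.65, and leaving out cre 9 gave −0.64. With Adipoq as a further term it was −0.61 and with Adgre1 −0.72. The annotated span of Atp5d overlaps that of the protein-coding gene Cbarp.

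Subunit c of ATP synthase, which forms the ring in the membrane, is encoded by 3 genes that give the same mature protein. Their estimates ran from −0.60 to 0.11, and differences among the 3 were not tested. Atp5g1 had log2 signals from 10.89 to 13.26 in wt (median 11.70) and from 10.28 to 12.47 in cre mice (median 11.27). Of the cre mice, 9 lay below the wt mean and 3 below every wt mouse, and the highest 2 wt values came from wt 6 and wt 5. The difference was −0.60 (SE 0.27, 95% interval −1.15 to −0.05), a 1.51-fold lower level (limma adjusted p = 0.781). By batch it was −0.27 and −0.92. With Adipoq as a further term it was −0.33 (SE 0.24) and without wt 5 and wt 6 −0.32 (SE 0.21), and in neither fit did it reach an unadjusted p under 0.05 in limma (0.179 and 0.15). With Adgre1 as a further term it was −0.56 (SE 0.27). Atp5g2 ranged from 13.86 to 15.14 in wt and from 13.27 to 14.83 in cre mice, with a difference of −0.08 (SE 0.19). Atp5g3 ranged from 12.78 to 14.02 in wt and from 12.80 to 14.16 in cre mice, with a difference of 0.11 (SE 0.17).

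The other 10 measured genes of complex V had estimates between −0.12 and 0.18. Atp5a1 and Atp5b, the alpha and beta subunits that form the catalytic head, differed by 0.18 (SE 0.14) and −0.02 (SE 0.14). Atp5b ranged from 16.62 to 17.38 in wt and from 16.43 to 17.49 in cre mice, with cre 4 lowest. Atp5c1, the gamma subunit that turns within the head, differed by 0.18 (SE 0.13), and Atp5e, the epsilon subunit, by 0.001. Atp5h, Atp5j and Atp5o, of the peripheral stalk, had estimates of −0.10, −0.12 and 0.11. The membrane subunits Atp5j2, Atp5k and Atp5l had estimates of −0.05, −0.09 and 0.08. Within complex V the estimates thus ran from −0.76 to 0.18.

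**Figure D1:**
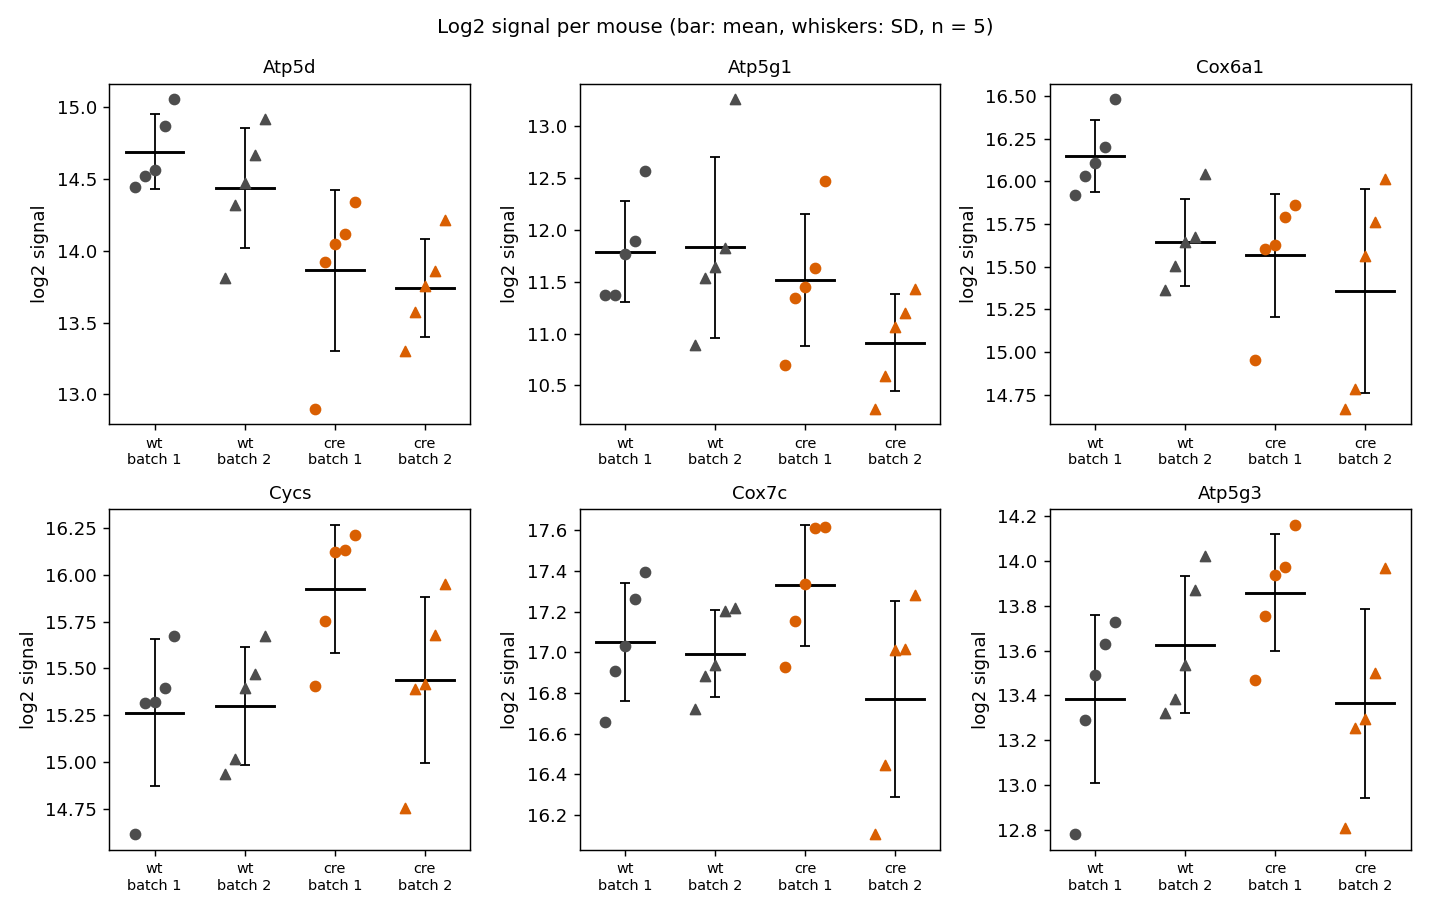
Log2 signal of 6 genes in each mouse, by genotype and batch (circles, batch 1; triangles, batch 2), with the mean as a bar and the SD as whiskers (n = 5). Atp5d lay lower in cre mice in both batches, the Cycs difference was 0.66 in the first batch against 0.14 in the second, and Cox7c and Atp5g3 were higher in cre mice of batch 1 and lower in those of batch 2.

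The estimates lay mostly on opposite sides of 0 in the batches. In batch 1, 32 of the 38 genes were higher and 6 lower in cre mice, with a median difference of 0.23. In batch 2, 6 were higher and 32 lower, with a median of −0.21. Over all probe sets the medians were −0.002 and 0.02, with 49.8% and 52.9% of probe sets higher in cre mice. The same turn was seen in 35 complex I genes, each centred on its mean over the 20 mice. Their average was −0.05 in wt and 0.28 in cre mice of batch 1, and 0.0005 and −0.23 in batch 2. Tested as a genotype by batch term in limma, 0 of the 38 genes passed adjustment, beside 0% of all probe sets. At an unadjusted p under 0.05, 10 of the 38 differed and all 10 were relatively lower in cre mice of batch 2, a direction called for 4.27% of all probe sets, while 0 were relatively higher, beside 3.14%. The 38 genes share mice and varied together, so these counts are not of independent genes. Cre 4, a mouse of batch 2, was the lowest of all mice in the average of the 38 genes (−0.79).

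The 10 genes came from all 4 complexes: Sdha of complex II, Uqcrh, Uqcrc2 and Uqcr10 of complex III, Cox7a2 of complex IV, and Atp5c1, Atp5g3, Atp5o, Atp5j2 and Atp5l of complex V. Uqcrh had the strongest such term. Its mean log2 signal was 13.08 ± 0.34 in wt and 13.65 ± 0.52 in cre mice of batch 1, and 13.36 ± 0.26 in wt and 12.54 ± 0.47 in cre mice of batch 2 (SD, n = 5 each). The difference between batches was −1.40 (SE 0.36, limma adjusted p = 0.654). Atp5j2, a membrane subunit of ATP synthase, went from 14.38 ± 0.19 in wt and 14.92 ± 0.54 in cre mice of batch 1 to 14.59 ± 0.33 and 13.94 ± 0.40 in batch 2, a difference between batches of −1.18 (SE 0.34). All 5 cre mice of batch 2 lay below every cre mouse of batch 1 for Uqcrh, whose highest value in batch 2 was 12.93 and whose lowest in batch 1 was 13.02.

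Between batches, over both genotypes, 33 of the 38 genes were lower in batch 2, with a median of −0.21 beside 0.003 over all probe sets. In limma 0 of the 38 passed adjustment, beside 0% of all probe sets. At an unadjusted p under 0.05, 2 were lower in batch 2 (Cox6b1 and Cox6a1), beside 0.419%, and 0 were higher, beside 0.153%. These shares of all probe sets were far below the 3.05% and 3.24% between genotypes. Whether the deposited values were adjusted for batch is not known. If they were, few batch calls would follow by construction, so the lack of calls says little about the batches.

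**Figure D2:**
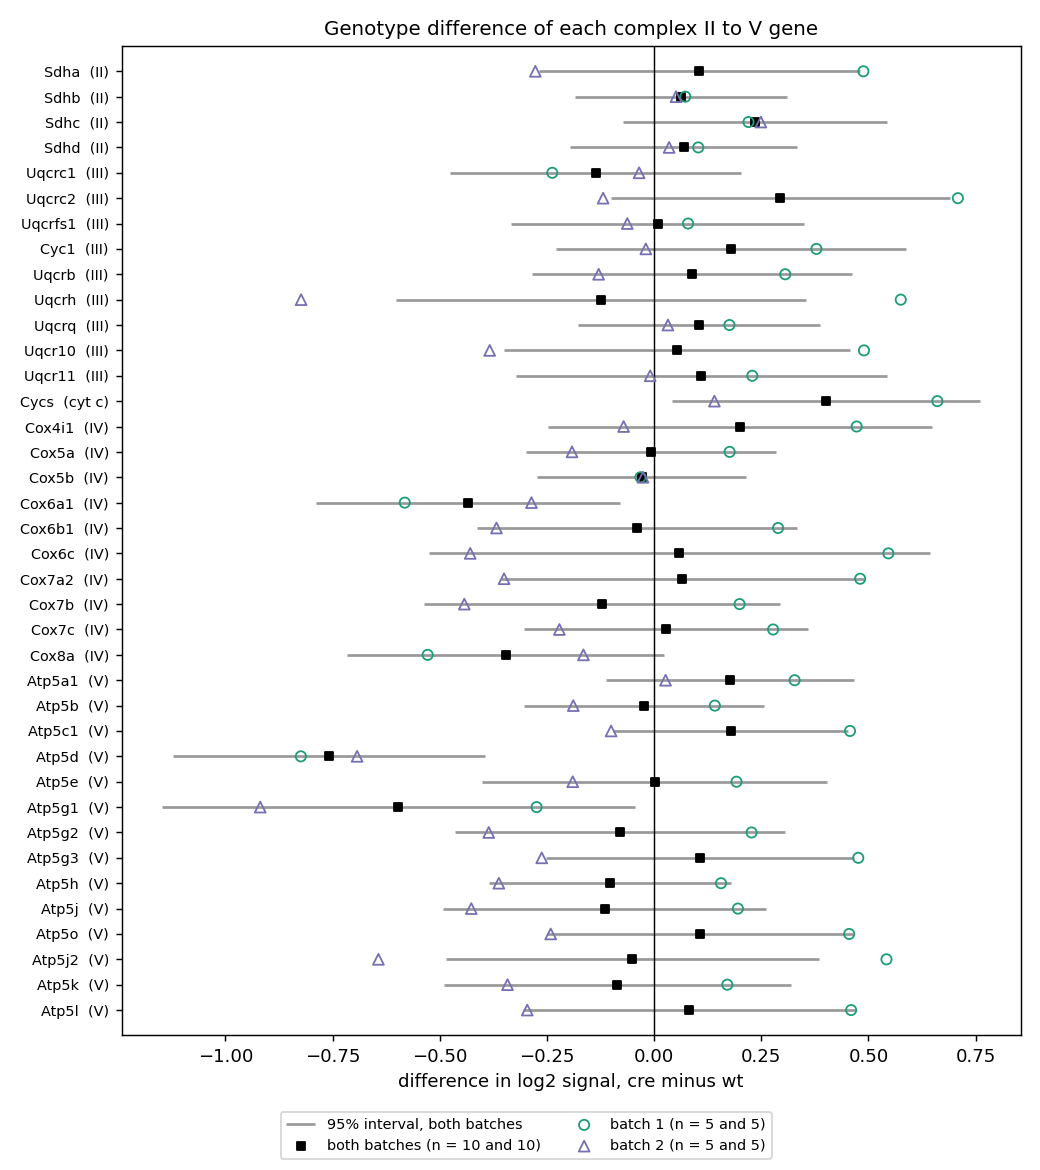
Difference in log2 signal between cre and wt mice for each of the 38 genes: both batches together (squares, with the 95% interval of the fit), batch 1 (circles) and batch 2 (triangles). Circles lie right of 0 for 32 genes and triangles left of 0 for 32 genes, while Atp5d, Atp5g1, Cox6a1 and Cox8a lie left of 0 in both batches.

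To describe the genes as a whole, each was centred on its mean over the 20 mice and the 38 centred values were averaged for each mouse. Wt mice averaged 0.004 ± 0.181 and cre mice −0.004 ± 0.359 (SD, n = 10 each). The mean ranged from −0.33 to 0.27 in wt and from −0.79 to 0.47 in cre mice, so that the extremes on both sides were cre mice. The difference was −0.009 (95% interval −0.264 to 0.246). In batch 1 the wt mean was −0.005 and the cre mean 0.212, and in batch 2 they were 0.014 and −0.221. Medians were 0.014 in wt and 0.273 in cre mice of batch 1, and 0.023 and −0.093 in batch 2. The lowest mouse was cre 4 at −0.79, followed by cre 6 at −0.34 and wt 5 at −0.33, and the highest were cre 7 at 0.47 and cre 5 at 0.33. By complex, the difference was 0.12 for complex II (interval −0.10 to 0.34), 0.06 for complex III (−0.24 to 0.37), −0.06 for complex IV (−0.35 to 0.23) and −0.08 for complex V (−0.34 to 0.17).

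**Figure D3:**
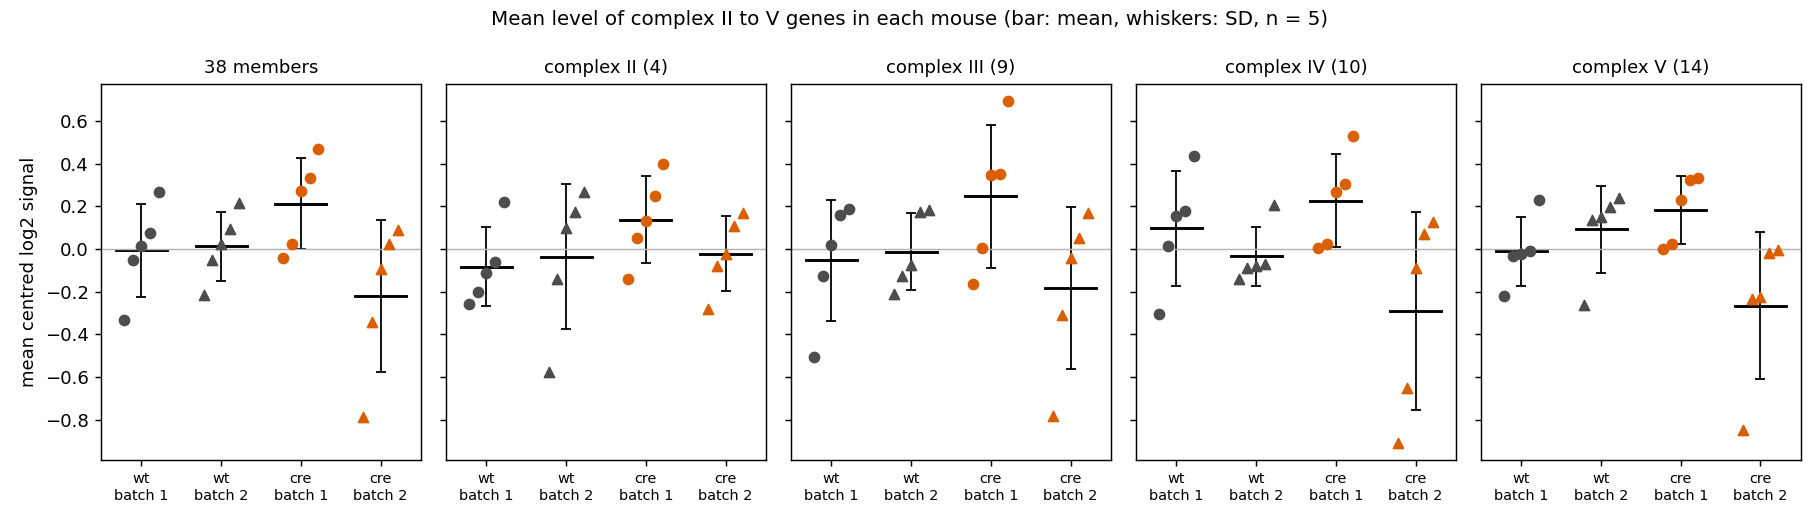
Mean of the centred log2 signals in each mouse, for all 38 genes and for the genes of each complex (number of genes in brackets), by genotype and batch, with the mean as a bar and the SD as whiskers (n = 5). Cre mice of batch 2 reach the lowest values in complexes III, IV and V, and the lowest point there is cre 4, at −0.79 over all 38 genes.

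The genes varied together from mouse to mouse. Across the 20 mice the median Pearson correlation of 2 genes was 0.467, and 650 of 703 pairs were positive. These points share mice, arrays and normalization, so the correlations are descriptions. A gene's median correlation with the mean of all the others was 0.708, and 20 of the 38 genes (52.6%) reached 0.7, while 0.863% of 19467 other genes reached 0.7 with the mean of the 38. Cox6b1 of complex IV (0.927), Uqcr10 of complex III (0.908), Cox7c of complex IV (0.895) and Atp5b of complex V (0.888) followed the mean most closely. Within complexes the median pair correlation was 0.544 for complex II, 0.500 for complex III, 0.523 for complex IV and 0.464 for complex V, beside the 0.467 over all pairs. The mean of 35 complex I genes, which encode the other entry point of the chain, correlated with the mean of the 38 at 0.955. Of these 35 genes, 15 (42.9%) reached 0.7 with the mean of the 38, with a median of 0.676.

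Of genes outside the list, the most alike in their pattern over the 20 mice were Bloc1s1 (r = 0.903 with the mean of the 38), Ndufa4 (0.893), a subunit now counted with complex IV, and Pcca (0.887), a mitochondrial enzyme of propionate breakdown. The mean of 55 cytosolic ribosomal protein genes, which lie outside mitochondria, correlated with it at 0.535, but at −0.02 in wt and 0.883 in cre mice. In cre mice of batch 2 the ribosomal protein genes were low as well, with a mean of centred log2 signals of −0.31 ± 0.37 against 0.17 ± 0.38 in wt mice of batch 2 (SD, n = 5 each), and their part in the lower values of the 38 genes there was not tested.

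A group of 5 genes was also described: Cox6a1 and Cox8a of complex IV, and Atp5d, Atp5g1 and Atp5g2 of complex V. They were picked out after their values were seen, so their numbers are descriptions. Other genes followed the mean of the rest as loosely: Sdhc (0.294) and Uqcrc1 (0.395) did so less than Cox6a1 (0.427) and Cox8a (0.443). Among themselves the median pair correlation of the 5 was 0.516 (0.308 to 0.929), and with the other 33 genes 0.172 (−0.391 to 0.581). Atp5d correlated with the mean of the other genes at 0.077 and with Atp5g1 at 0.796, and Cox6a1 with Cox8a at 0.929. Of the 6 genes with lower estimates in cre mice in both batches, 4 are among these 5, and the other two are Uqcrc1 and Cox5b. The mean of the 5 was 0.22 ± 0.26 in wt and −0.22 ± 0.43 in cre mice (SD, n = 10 each), and that of the 33 others −0.03 ± 0.21 and 0.03 ± 0.38. The 5 include Atp5d, Atp5g1 and Cox6a1, the genes lower in cre mice at an unadjusted p under 0.05 in limma. Their lower mean in cre mice thus follows in part from the choice.

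**Figure D4:**
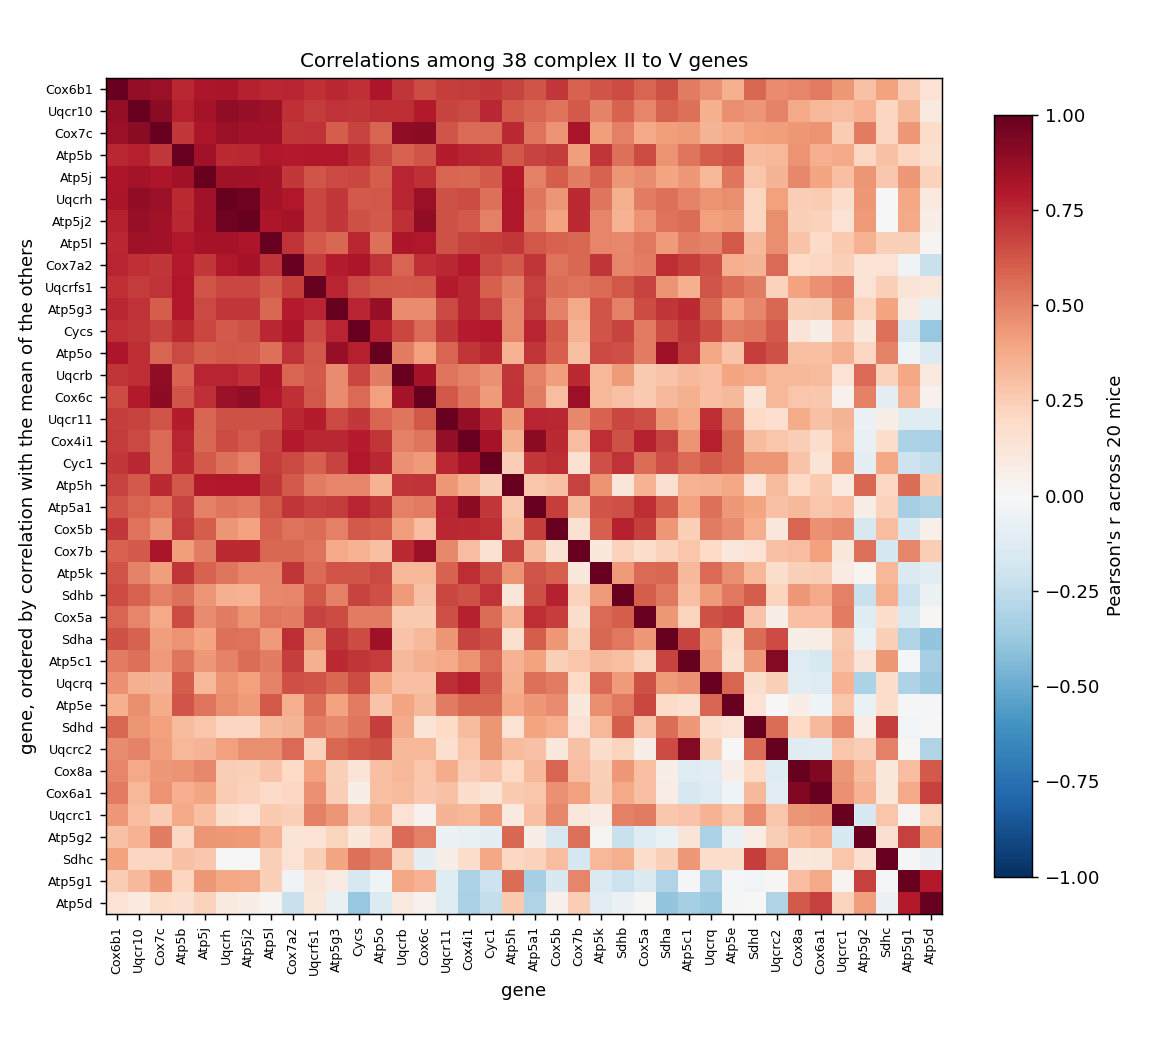
Pearson's r across 20 mice for each pair of the 38 genes, ordered by each gene's correlation with the mean of the others (colour scale from −1 to 1). The upper left shows genes of complexes III, IV and V at high r, and Atp5g1 and Atp5d at the lower end correlate with each other (0.796) and less with most other genes.

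Adipoq encodes adiponectin, a hormone made by adipocytes, and was used as a marker of adipocyte signal. Its log2 signal ranged from 17.38 to 19.29 in wt (median 19.02) and from 18.63 to 19.57 in cre mice (median 19.12). The 2 lowest mice, at 17.38 and 17.57, were wt 6 and wt 5, apart from all others. With genotype and batch in the fit, 33 of the 38 genes had a positive slope on Adipoq, with a median of 0.23 log2 units per log2 unit beside 0.02 over all probe sets. In limma, adjusted over 22205 probe sets, 4 of the 38 genes passed with a positive slope, beside 3.82% of all probe sets, and 0 with a negative one, beside 2.25%. Each complex gave 1 of the 4.

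Sdha of complex II had a slope of 0.57 (SE 0.12, limma adjusted p = 0.00622) and a Pearson r with Adipoq of 0.775 (permutation p = 0.00023, adjusted 0.014; Spearman's rho 0.737). By batch its r was 0.872 and 0.671, and it was 0.642 without the 2 mice lowest in Adipoq. Cyc1 of complex III had a slope of 0.62 (SE 0.14, limma adjusted p = 0.00603), an r of 0.778 (permutation p = 8e-05, adjusted 0.00871) and a rho of 0.752. Its r was 0.925 in batch 1, 0.615 in batch 2 and 0.678 without the 2 lowest mice. For both genes the lowest or nearly lowest mice were wt 5 and wt 6, the mice lowest in Adipoq.

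Cox4i1 of complex IV had log2 signals from 12.19 to 13.68 in wt (median 13.50) and from 12.42 to 14.34 in cre mice (median 13.49), with the lowest value in wt 5. Its slope was 0.64 (SE 0.16, limma adjusted p = 0.0142) and its r 0.712 (permutation p = 0.00191, adjusted 0.0461), with a rho of 0.552 (adjusted 0.154). By batch its r was 0.844 and 0.593, and it was 0.489 without the 2 lowest mice. Atp5o, which links the peripheral stalk of ATP synthase to the head, ranged from 12.35 to 13.41 in wt and from 12.24 to 13.66 in cre mice. It had a slope of 0.48 (SE 0.13, limma adjusted p = 0.0310), an r of 0.697 (permutation p = 0.00047, adjusted 0.0215) and a rho of 0.689, with r at 0.830 and 0.567 by batch and 0.582 without the 2 lowest mice. Without wt 5 and wt 6 none of the 4 genes passed, though the slopes were 0.73 for Sdha, 0.83 for Cyc1, 0.65 for Cox4i1 and 0.66 for Atp5o, with adjusted p between 0.0679 and 0.228 in limma. Without wt 5 alone 1 gene passed, and without wt 6 alone 7 did.

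Slopes were negative for 5 genes, among them 2 of subunit c and the delta subunit. Atp5g1 had a slope of −0.68 (SE 0.21, limma adjusted p = 0.0626) and an r of −0.634 (permutation p = 0.0166, adjusted 0.151), which was −0.09 without wt 5 and wt 6, so that it rests on these mice. In wt mice alone, which include both, the slope was −0.89 and passed adjustment (limma adjusted p = 0.00743), while in cre mice alone it was 0.04 (SE 0.47). On the mean of the adipocyte list in place of Adipoq the slope was −0.66 and passed as well (limma adjusted p = 0.0226). Atp5d had a slope of −0.36 (SE 0.15, limma adjusted p = 0.186) and an r of −0.574 (permutation p = 0.00725, adjusted 0.0987), with −0.606 and −0.577 by batch and −0.335 without wt 5 and wt 6. The seminal vesicle list was high in wt 6, with a mean of 16.7 against at most 5.77 in the other wt mice, and its part in the Atp5g1 result was not tested. The other 3 genes with negative slopes were Atp5g2, Cox7b and Atp5h, at −0.27, −0.15 and −0.07.

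Slopes of the remaining genes did not pass adjustment in limma. By the permutation test of Pearson's r, adjusted over all probe sets, 6 of the 38 genes passed with a positive r, beside 2.97% of all probe sets, and 0 with a negative one, beside 1.42%. Beside the 4 genes above these were Cox5b (r = 0.606, adjusted p = 0.0396) and Cox6b1 (r = 0.441, adjusted p = 0.0381), both of complex IV, with r at 0.317 and 0.440 without wt 5 and wt 6. By batch r was 0.710 and 0.659 for Cox5b, and 0.740 and 0.318 for Cox6b1. In complex II the remaining slopes on Adipoq were 0.25 (Sdhb), 0.15 (Sdhc) and 0.19 (Sdhd), and in complex III the slopes ran from 0.06 (Uqcrb) to the 0.62 of Cyc1. Cycs had a slope of 0.42 (SE 0.14, limma adjusted p = 0.0907). In complex V the highest estimate was that of Atp5k, the e subunit, whose log2 signals ranged from 6.48 to 7.60 in wt and from 6.13 to 8.07 in cre mice, at 0.49 (SE 0.16, limma adjusted p = 0.0651). The mean of the 38 genes correlated with Adipoq at 0.395 (rho 0.420), but at 0.903 in batch 1 and 0.025 in batch 2.

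Adgre1 encodes the macrophage surface protein F4/80. Its log2 signal ranged from 11.41 to 14.3 in wt (median 12.55) and from 10.66 to 13.91 in cre mice (median 12.68), and it ran against Adipoq over the 20 mice (r = −0.508, rho = −0.654). With genotype and batch in the fit, 32 of the 38 genes had a negative slope on Adgre1, with a median of −0.17 beside −0.02 over all probe sets. In limma 2 of the 38 passed with a negative slope, beside 2.56% of all probe sets, and 0 with a positive one, beside 6.26%. The 6 genes with positive slopes were Sdhc, Sdhd, Cox6a1, Atp5d, Atp5g1 and Atp5g2.

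Uqcr11, the smallest accessory subunit of complex III, had log2 signals from 7.56 to 8.96 in wt (median 8.49) and from 7.47 to 9.35 in cre mice (median 8.67). Its slope on Adgre1 was −0.36 (SE 0.09, limma adjusted p = 0.0170) and its r −0.716 (permutation p = 0.00258, adjusted 0.0397), with a rho of −0.594 (adjusted 0.0920). By batch its r was −0.777 and −0.566, and it was −0.578 without cre 7 and cre 9. Cox4i1 had a slope of −0.38 (SE 0.10, limma adjusted p = 0.0124), an r of −0.731 (permutation p = 0.00334, adjusted 0.0456) and a rho of −0.632 (adjusted 0.0638). By batch its r was −0.83 and −0.43, and it was −0.554 without cre 7 and cre 9. The mice farthest from the median of Adgre1 were cre 7 and cre 9, which were low in Adgre1 and high in both genes. Without them neither gene passed, with slopes of −0.36 for Uqcr11 and −0.34 for Cox4i1, and without wt 5, which was high in Adgre1 and low in both genes, 0 of the 38 passed. Leaving out wt 3 instead gave 8, and leaving out cre 9 alone, the mouse high in erythroid genes, gave 1. By the permutation test of Pearson's r, 3 of the 38 genes passed with a negative r, beside 2.14% of all probe sets, and 0 with a positive one, beside 5.56%. The third was Atp5b (r = −0.650, adjusted p = 0.0465), with r at −0.852 and −0.391 by batch and −0.560 without cre 7 and cre 9.

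With Adipoq and Adgre1 in 1 fit, Sdha was the 1 gene that passed on Adipoq (slope 0.53, limma adjusted p = 0.0308). Of all 22204 probe sets 634 passed there with a positive slope. No gene of the 38 passed on Adgre1, beside 520 of all probe sets with a negative slope and 1042 with a positive one. The mean of the 38 genes correlated with Adgre1 at −0.563 (rho −0.400), with −0.673 in batch 1 and −0.417 in batch 2. The mean of all 6 listed brown adipocyte genes correlated with the mean of the 38 at 0.418 (rho 0.699). The 6 are Ucp1, Cidea, Elovl3, Cox7a1, Cox8b and Ppargc1a. Cox7a1 and Cox8b are themselves tissue isoforms of complex IV subunits, and Ppargc1a drives mitochondrial biogenesis, so the list is not independent of the complexes. The mean of the 6 ranged from 5.56 to 6.29 in wt and from 5.60 to 8.31 in cre mice. Ucp1, the defining gene of the list, had a median of 4.39 in wt and 4.33 in cre mice, with a highest value of 12.2 in a cre mouse. The part of brown or beige adipocytes in these relations was not tested.

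**Figure D5:**
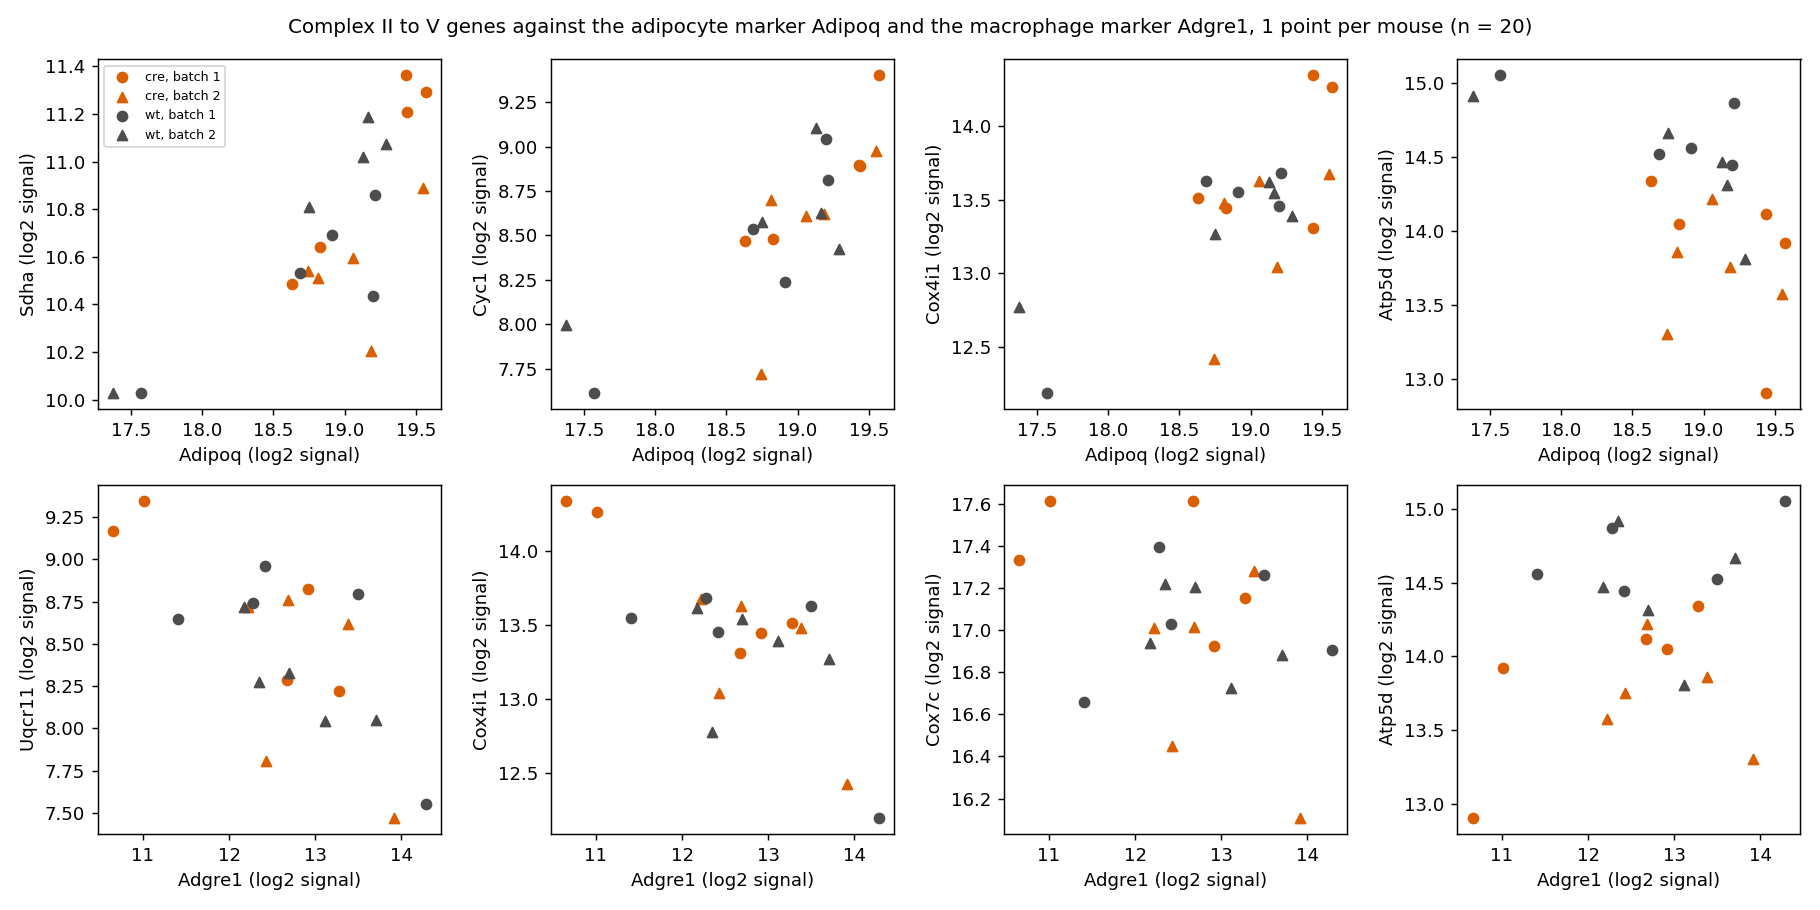
Log2 signals of Sdha, Cyc1, Cox4i1 and Atp5d against Adipoq (upper row) and of Uqcr11, Cox4i1, Cox7c and Atp5d against Adgre1 (lower row), 1 point per mouse (n = 20), coloured by genotype and shaped by batch. The 2 points at the left of the upper panels are wt 6 and wt 5, at 17.38 and 17.57, where Sdha, Cyc1 and Cox4i1 are low and Atp5d is high.

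Genes that build and regulate the complexes were read from the same fit. None passed adjustment between genotypes, beside the 0.0045% given above. Of 31 measured assembly factors of 34 listed, 20 had higher and 11 lower estimates in cre mice, with a median of 0.08. At an unadjusted p under 0.05 were 2 higher and 1 lower, beside 3.24% and 3.05% of all probe sets. Sco1, a copper chaperone of complex IV, and Uqcc1, an assembly factor of complex III, had higher estimates, 0.36 (SE 0.15) and 0.39 (SE 0.18), and Cox15, which makes heme A for complex IV, a lower one, −0.36 (SE 0.14). Of 16 measured regulators of mitochondrial biogenesis of 17 listed, 12 had higher and 4 lower estimates, and 2 higher and 1 lower were at an unadjusted p under 0.05, beside the same shares. Ppargc1a, the coactivator that drives mitochondrial biogenesis, was 6.69 in wt and 7.36 in cre mice on average, a difference of 0.67 (SE 0.26, limma adjusted p = 0.770). Lrpprc, which stabilises mitochondrial transcripts, differed by 0.33 (SE 0.16) and Tfam, which packages mitochondrial DNA, by −0.31 (SE 0.15).

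Enzymes of the tricarboxylic acid cycle, which feeds the chain, all had higher estimates in cre mice: 12 of 12 measured genes of 13 listed, with a median of 0.27. Fumarate hydratase, Fh1, differed by 0.49 (SE 0.20, limma adjusted p = 0.772). It was the 1 gene of the 12 at an unadjusted p under 0.05, beside 3.24% of all probe sets. Of these 12 genes 6 passed on Adipoq with a positive slope, beside 3.82% of all probe sets. Without wt 5 and wt 6, a fit added for this list after the values were seen, 1 passed, beside 338 of 22205 probe sets. Of 14 tissue isoforms, paralogs and partners of the complexes, 6 had higher and 8 lower estimates, of which Higd1a at 0.31 (SE 0.19), Atpif1, the inhibitor of ATP synthase, at −0.32 (SE 0.26), and Cox6b2 at −0.25 (SE 0.21) had the smallest p. Of 6 carriers of the mitochondrial membranes 3 had higher and 3 lower estimates, with Vdac3 at 0.23 (SE 0.12). The 6 listed genes of the mitochondrial genome had no probe set under their symbols and were not analysed here.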

How the data were processed

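The values are the log2 signals that the authors deposited for 20 arrays and 22206 probe sets. The tools named in the submitters' processing notes are RMA and Transcriptome Analysis Console 4.0.2.15, with build mm10. Whether values were filtered or adjusted for batch is not given in the sources used here. Since RMA equalises arrays, these values cannot show a change common to most genes. The platform annotation gives 19572 probe sets 1 gene symbol.

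Genotype, batch and mouse number came from the sample titles. Each gene was fitted with limma 3.58.1 in R 4.3.3 (lmFit and eBayes on genotype and batch, Benjamini-Hochberg over all probe sets, threshold 0.05), with a genotype by batch term, or with Adipoq or Adgre1 as a further term. The fit was tested on simulated data. Correlations were tested with 100000 two-sided permutations within genotype and batch and adjusted over all probe sets (Python 3.11.15, NumPy 2.4.6, SciPy 1.17.1, pandas 2.3.3; figures with matplotlib 3.10.9). Intervals are 95% intervals; the mean of the genes was given no p. The titles call the mice biological replicates. Same-numbered wt and cre mice did not generally deviate together (10 pairs, r from −0.303 to 0.339, median 0.036, 4 over 0.1), so the main fit used no pairing. With the mouse number as a block, the SE of Cox6a1 was 0.14 instead of 0.17, and that of Cycs 0.19 instead of 0.17.

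The genes, lists, motifs and tests were chosen with earlier results of these data known. Named genes are those with an unadjusted p under 0.05 for genotype or an adjusted call, those with the highest and lowest mean signal or Adipoq slope in each complex, the subunit c genes and Cycs, and up to 3 genes of each other list by smallest p. Genes named for the genotype by batch term or for their correlations, the complex I and ribosomal protein lists and the group of 5 genes were chosen after the values were seen. The alternatives tried were other terms, batches or genotypes alone, marker list means, other normalization, filter, prior and weights, and leaving out mice.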

Additional observations from a re-analysis of the deposited data

Results flagged for a closer look

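For each of the 38 genes and for their mean, in each genotype, the lowest or highest of 10 mice was compared with its nearest neighbour. A gap that was wide for the group's range was found in 6 of 78 groups, and chance gives about 1 in 20. In 5 of the 6 the mouse was cre 4, as the lowest cre mouse: Uqcrb at 15.84 (next mouse 16.68), Cox5b at 13.22 (next 13.63), Atp5b at 16.43 (next 16.93), Atp5g2 at 13.27 (next 14.06) and Atp5j at 10.96 (next 11.89). The sixth was Cox7a2 in wt 5, at 11.35 (next 11.94). The genes share mice, so the 5 flags of cre 4 are not independent. Without cre 4 and wt 5, chosen after the values were seen, the mean of the 38 genes differed by 0.02 between genotypes.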

How the results depend on the processing

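With 10 mice in each genotype, the number of arrays limits the precision: the interval for the mean of the 38 genes ran from −0.264 to 0.246. Between genotypes, 0 of the 38 genes passed adjustment in the main fit (4 at an unadjusted p under 0.05), under each of 14 alternatives and without each mouse in turn. The difference in the mean of the genes ran from −0.06 to 0.07 without single mice. It changed sign between the batches, at 0.217 in batch 1 (interval −0.098 to 0.532) and −0.235 in batch 2 (−0.638 to 0.169). Atp5d, Cox6a1, Atp5g1 and Cycs kept their directions under all 14 alternatives and without each mouse in turn. The count of all probe sets called, 1, was 0 in each batch alone and with the replicate block, 2 with Adgre1 as a term, and 1 to 2 without single mice (2 without wt 4). The replicate block changed no call of the 38 genes between genotypes. The 4 genes at an unadjusted p under 0.05 (1 higher, 3 lower) were 8 in batch 1 alone and 2 with array weights. With the replicate block 1 gene was higher and 4 lower, and in batch 2 alone 0 and 4. They were 0 and 3 without wt 5 and 6 and with Adipoq as a term. Without the mice with signs of other tissues they were 1 and 2, and without cre 4 and wt 5 they were 2 and 1. Without wt 5 and 6 and with Adipoq, Cox8a was among them in limma, and Cycs and Atp5g1 were not. Without single mice the count was 2 to 5 (2 without wt 5 or cre 9). The study's selection, 2 genes, held 2 higher and 1 lower in batch 1 alone and 4 lower in batch 2 alone. It held 1 without wt 5 and 6, without the 4 mice with signs of other tissues, after quantile normalization, with array weights, with Adipoq or Adgre1 as a term, and without cre 4 and wt 5 (chosen after the values were seen), and 1 to 2 without single mice (1 without wt 2, 5 or 6 or cre 4, 9 or 10). The 4 genes called on Adipoq, all with positive slopes, were 7 without genotype and batch terms (6 positive, 1 negative), 3 in wt alone (2 positive and Atp5g1 negative), 2 with the mean of the adipocyte list (Cyc1, and Atp5g1 with a negative slope), 1 with both markers and in batch 1 alone, and 0 in batch 2 alone, in cre alone, with the replicate block and without wt 5 and 6, which are also the 2 mice farthest from the median. Of all probe sets, 849 were called with a positive slope in the main fit, 1063 without genotype and batch terms and 1004 with the list mean. The same number was 634 with both markers, 579 in wt alone, 319 in batch 1, 510 in batch 2 and 4 in cre alone. With the replicate block it was 396, and without wt 5 and 6 it was 338. Negative calls were 500 in the main fit, 815 without these terms, 302 in wt alone and 737 with the list mean. Without single mice the count of the 38 genes was 1 to 7. The 2 genes called on Adgre1 were 10 after quantile normalization and 7 without genotype and batch terms. Of all probe sets, 569 were called with a negative slope in the main fit, 743 after quantile normalization and 734 without these terms. The called genes were 1 with the replicate block and without wt 5 and 6. They were 0 with both markers, in batch 2 alone, in wt or cre alone and without the 2 farthest mice. Without single mice they were 0 to 8 (1 without cre 4 or cre 9). Of all probe sets, 131 had a called negative slope with the replicate block and 546 without wt 5 and 6. With both markers there were 520, in batch 2 alone 0, in wt alone 4, in cre alone 279 and without the 2 farthest mice 118. The slopes of the 6 calls kept their direction in these fits, and the cause of the changes was not tested. The mean over all probe sets of a gene is the same by construction, since each gene had 1.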
